A study of Mus musculus with 6 samples.

Results

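The dual-specificity MAP kinase phosphatases examined here were 9 genes, Dusp1, Dusp2, Dusp4, Dusp5, Dusp6, Dusp7, Dusp8, Dusp10 and Dusp16, out of 24421 gene symbols measured. They were selected on their levels in the libraries described here, as phosphatase genes to compare between immunoprecipitates and starting lysate. The differences of the 9 genes between groups, and the counts of those that passed a threshold, are therefore given as a description. No p-value of a single member is printed. RNA came from whole hearts of the mouse strain C57BL6/J, taken at 4 weeks. It was sequenced from immunoprecipitates made with an antibody against Cnot3 (Cnot3 RIP), from immunoprecipitates made with control IgG (control IgG RIP) and from the lysate itself (Input), with 2 libraries in each of the 3 groups. RIP, RNA immunoprecipitation, recovers RNA that is held together with a protein. The protein here, Cnot3, belongs to CCR4-NOT, the main deadenylase complex, which removes poly(A) tails and so starts mRNA decay. The labels name no genotype or treatment that differs between the groups and speak of 2 experiments, without saying whether these used separate or pooled animals, so the spread between replicates may be partly technical. Both antibodies were applied to lysates of the whole organ, and for such bulk RNA fewer cells of a type and less RNA per cell cannot be told apart.

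MAP kinases are switched on by phosphorylation of a threonine and a tyrosine in their activation loop, and dual-specificity phosphatases switch them off by removing both phosphates. Nuclear members such as Dusp1, Dusp2, Dusp4 and Dusp5 and the cytoplasmic, ERK-directed Dusp6 are widely known as genes that are transcribed in response to the signal they later end. Dusp7 is a second cytoplasmic phosphatase of ERK, and Dusp8, Dusp10 and Dusp16 act mainly on the stress-activated kinases JNK and p38. In the heart these enzymes are known for limiting ERK, JNK and p38 signalling during growth and stress. For the contrast made here Dusp1, Dusp2, Dusp4, Dusp5 and Dusp6 formed the inducible set of 5 genes, and Dusp7, Dusp8, Dusp10 and Dusp16 formed the less inducible set of 4 genes. Dusp9, another ERK-directed member of the family, had no read in the control IgG RIP and Input libraries and 1 and 2 reads in the Cnot3 RIP libraries, and was not tested.

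AU-rich elements in a 3′ untranslated region (3′ UTR) are sites through which decay factors such as the Zfp36 proteins bring mRNAs to CCR4-NOT. The windows below show where the AU-rich heptamer TATTTAT stands in the phosphatase mRNAs, because its number differed between the members. Each window holds 30 bases of the coding strand, 5′ to 3′, with the heptamer in capitals. Positions are in GRCm38 (mm10), from the GENCODE M21 transcript with the longest coding sequence of each gene. The 3 Dusp1 heptamers lie in its 3′ UTR at chr17:26506170-26506176, chr17:26505881-26505887 and chr17:26505685-26505691 on the minus strand, 104, 393 and 589 bases after the stop codon.
Dusp1, 104 bases after the stop: gagctggtcctTATTTATttaacacccccc
Dusp1, 393 bases after the stop: gtttttaccttTATTTATttttgtgtaggt
Dusp1, 589 bases after the stop: gtatgtttgttTATTTATgatctgaagtaa
Dusp8 held 2 heptamers, at chr7:142081726-142081732 and chr7:142080153-142080159 on the minus strand, and Dusp2 held 1, at chr2:127338315-127338321 on the plus strand.
Dusp8, first site: tttcgatttttTATTTATttaagctagtga
Dusp8, second site: agaggtttaagTATTTATtattattggtta
Dusp2, only site: acagcactttaTATTTATatagaacattga
The other 6 members had no copy. Among genes with a 3′ UTR within 25% of the length of that of Dusp1 (690 bases), 1.14% of 1667 held at least 3 heptamers. The same comparison gave 14.5% of 1960 genes with at least 2 for Dusp8, whose 3′ UTR has 2370 bases, and 16.6% of 1561 genes with at least 1 for Dusp2, whose 3′ UTR has 581 bases. The longer nonamer TTATTTATT, which contains the heptamer, occurred 2 times in Dusp1 and 1 time in Dusp8. The short core ATTTA, also contained in both, occurred between 1 and 5 times in 8 members and not in Dusp7.

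Dusp6 had no heptamer but held 2 copies of the Pumilio-type octamer TGTANATA, at chr10:99266800-99266807 and chr10:99267119-99267126 on the plus strand. Pumilio proteins are another group of RNA-binding proteins known to bring mRNAs to CCR4-NOT. The windows are shown with the octamer in capitals.
Dusp6, first site: tatctgattatTGTAAATAtttgatcttca
Dusp6, second site: tgccttaccttTGTAAATAtttggcttaca
Among 2086 genes with 3′ UTRs of like length, 5.27% had at least 2 such octamers. Dusp1 and Dusp16 held 1 each. A match describes letters in a transcript and is not a measured binding site.

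The promoters of 3 members are shown because they carry the response elements that signal-inducible genes are known for. The sequences are from RefSeq (GRCm38.p6), cover 250 bases before to 50 bases after the start, and were found for 8 of the 9 members, all but Dusp4. Capitals mark the cAMP response element TGACGTCA, its core TGACG and, in Dusp5, the CArG box, each searched on both strands. The core lies within the full element, so the 2 overlap. The windows are chr17:26508423-26508722 on the minus strand for Dusp1, chr7:142095235-142095534 on the minus strand for Dusp8 and chr19:53528895-53529194 on the plus strand for Dusp5.
Dusp1: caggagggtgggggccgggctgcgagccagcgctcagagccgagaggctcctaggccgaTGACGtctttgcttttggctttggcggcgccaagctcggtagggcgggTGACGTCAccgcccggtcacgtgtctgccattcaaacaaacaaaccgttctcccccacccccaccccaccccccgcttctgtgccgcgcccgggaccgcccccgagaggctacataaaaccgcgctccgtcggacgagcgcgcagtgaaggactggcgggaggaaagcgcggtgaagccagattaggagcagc
Dusp8: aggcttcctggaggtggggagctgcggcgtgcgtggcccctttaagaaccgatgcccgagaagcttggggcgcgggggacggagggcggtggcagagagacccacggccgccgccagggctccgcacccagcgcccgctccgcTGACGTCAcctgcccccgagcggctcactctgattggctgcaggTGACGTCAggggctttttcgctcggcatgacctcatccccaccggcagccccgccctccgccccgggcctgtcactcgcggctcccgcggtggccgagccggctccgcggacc
Dusp5: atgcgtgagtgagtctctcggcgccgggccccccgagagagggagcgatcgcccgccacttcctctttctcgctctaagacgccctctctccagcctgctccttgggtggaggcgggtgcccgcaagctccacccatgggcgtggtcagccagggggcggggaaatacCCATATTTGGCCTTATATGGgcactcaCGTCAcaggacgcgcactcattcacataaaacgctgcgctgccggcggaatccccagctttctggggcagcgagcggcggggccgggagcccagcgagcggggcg
The full element began at position -143 from the start in Dusp1 and at positions -107 and -63 in Dusp8, and 1.79% of 32851 mouse promoters of this length hold it. The core alone, present in 20.8% of promoters, was also found in Dusp2, Dusp5 and Dusp16. Dusp5 held 2 CArG boxes, the sites of serum response factor, beginning at positions -82 and -72, against 1.63% of promoters with any. The AP-1 site TGANTCA, the ETS core CCGGAA (both strands) and TATAAA (the coding strand only) were in none of the 8 windows and in 7.81%, 14.9% and 8.32% of promoters.

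The libraries held 15713318 to 33479580 reads. The precursor of ribosomal RNA, Rn45s, took 51.1 to 53.1% of them with the Cnot3 antibody, 59.4 to 60.2% with control IgG and 78.3 to 79.2% in Input, which left 3407528 to 12500739 reads for other genes. Levels are given as CPM, reads relative to the library total, after scaling by the trimmed mean of M-values (scaled CPM), which sets the bulk of genes level between libraries. With scaling to library size alone the median log2 fold change of all tested genes moved from -0.003 to 0.30 for Cnot3 RIP against control IgG RIP, from 0.06 to 1.02 for Cnot3 RIP against Input and from 0.01 to 0.70 for control IgG RIP against Input. All differences below are relative to the median gene. The highest of the 15 correlations between libraries (log2 scale, across genes, which are not independent replicates) joined the second control IgG RIP library to the first of Cnot3 RIP (r = 0.975), and the pair of Cnot3 RIP libraries reached 0.965. All 8 heart muscle markers had more than 3 reads in every library. The summed markers of fibroblasts, endothelium, leukocytes, smooth muscle with pericytes, and red cells overlapped between Cnot3 RIP and control IgG RIP. Those of endothelium were at 197 to 371 against 222 to 357 scaled CPM. Both globin genes of the red cell list were at 0 throughout, for a reason that was not tested. The red cell sum thus rests on Alas2 alone and is not read as an amount of red cells. Skeletal muscle markers summed to 29.4 to 34.8 scaled CPM in the immunoprecipitates and to 60.5 to 68.7 in Input. Only 1 of these 4 markers had more than 3 reads in each library of a group, so the sums are not read as an amount of skeletal muscle. Their part in the results was not tested.

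A fold change here is a difference of log2(scaled CPM + 0.25) in a limma fit to all 6 libraries, a scale that understates the change of a gene with few reads. All 9 phosphatase genes were among the 13010 tested. Dusp2 passed the filter on low values only through the Cnot3 RIP libraries, so its difference had to point upward. Medians over the 9 genes are therefore given with and without it. An exact permutation test of 2 libraries against 2 cannot give a p under 0.333.

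Dusp1, the immediate-early nuclear phosphatase of p38, JNK and ERK (chr17:26505590-26508519, minus strand), had the largest difference of the 9 genes. The Cnot3 RIP libraries held 266 and 621 scaled CPM of it, those of control IgG RIP 17.6 and 34.5, and those of Input 27.6 and 25.0. Both Cnot3 RIP libraries lay far above the other 4, and those 4 lay within a narrow band in which control IgG RIP and Input overlapped. The log2 fold change was 4.03 (SE 0.42) against control IgG RIP, which is 16.3-fold, and 3.94 (SE 0.42) against Input. Leaving out 1 library at a time gave 3.42 to 4.65 against control IgG RIP, the low end when the second and the high end when the first Cnot3 RIP library was left out.

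Dusp2, a nuclear phosphatase best known from activated leukocytes (chr2:127336159-127338376, plus strand), was close to the limit of detection. The Cnot3 RIP libraries held 14 and 24 reads (0.499 and 0.719 scaled CPM), those of control IgG RIP 1 and 4 reads (0.0577 and 0.181), and those of Input 0 and 2 reads (0 and 0.0966), so the Cnot3 RIP libraries were the 2 highest. The ratio of summed scaled reads, 38 against 5, was 4.88 over control IgG RIP. Over Input it was 9.75, from 38 against 2 reads, with an exact 95% Clopper-Pearson interval of 2.52 to 83.5 that covers counting error only. Neither ratio is a test, since Dusp2 was kept among the tested genes through its Cnot3 RIP reads. Leukocyte markers summed to 40.6 to 56.9 scaled CPM in Cnot3 RIP and 52.7 to 62.0 in control IgG RIP, and their part in the values of Dusp2 was not tested.

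Dusp4, a nuclear phosphatase of ERK and JNK (chr8:34807297-34819894, plus strand), stood near 1 scaled CPM in all groups. The pair of Cnot3 RIP values was 1.35 and 1.08, that of control IgG RIP 0.807 and 0.770, and that of Input 1.11 and 0.483. Cnot3 RIP was above control IgG RIP in both libraries but overlapped Input. The log2 fold change was 0.49 (SE 0.39) against control IgG RIP and 0.55 (SE 0.39) against Input, little more than its own standard error. Dusp5, the nuclear phosphatase specific for ERK (chr19:53529109-53542431, plus strand), gave 2.32 and 3.12 with the Cnot3 antibody, 0.519 and 1.68 with control IgG and 1.39 and 0.676 in the lysate. Both Cnot3 RIP libraries were the highest, with a log2 fold change of 1.27 (SE 0.47) against control IgG RIP and 1.26 against Input. The first of these was 0.58 without the first and 1.92 without the second control library, which lay far apart.

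Dusp6, the cytoplasmic phosphatase that acts on ERK and is itself an ERK target (chr10:99263231-99267488, plus strand), came after Dusp1. Its Cnot3 RIP values were 40.7 and 69.6 scaled CPM, its control IgG RIP values 6.0 and 10.6, and its Input values 10.8 and 9.37. Its Cnot3 RIP libraries were separated from all 4 others by a wide gap. The log2 fold change was 2.70 (SE 0.33) against control IgG RIP, 6.50-fold, and 2.38 against Input, and stayed between 2.27 and 3.10 against control IgG RIP when 1 library was left out.

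Dusp7, its cytoplasmic relative (chr9:106368632-106375724, plus strand), behaved differently in the pair of Cnot3 RIP libraries. Its Cnot3 RIP values were 26.1 and 132 scaled CPM, its control IgG RIP values 19.0 and 13.0, and its Input values 15.1 and 28.4. Cnot3 RIP replicate 1 lay between the Input libraries, and only replicate 2 was far above every other library. The log2 fold change of 1.89 against control IgG RIP had the largest standard error of the 9 genes, 0.63, and was 3.06 without the first and 0.73 without the second Cnot3 RIP library. Against Input it was 1.49 (SE 0.63).

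Against control IgG RIP, the phosphatases acting mainly on JNK and p38 were higher by smaller amounts than Dusp1, Dusp6 and Dusp7. Against Input the log2 fold change of Dusp10 (1.62) was above that of Dusp7 (1.49). Dusp8 (chr7:142079490-142095272, minus strand) gave 28.1 and 50.2 scaled CPM with the Cnot3 antibody, 13.3 and 17.9 with control IgG and 15.8 and 17.8 in the lysate. Dusp10 (chr1:184034381-184075636, plus strand) gave 10.4 and 19.8, 3.69 and 5.35, and 5.45 and 3.72 in the same order. In both genes the Cnot3 RIP libraries were the 2 highest, with log2 fold changes against control IgG RIP of 1.27 (SE 0.30) for Dusp8 and 1.64 (SE 0.35) for Dusp10. Leaving out 1 library gave 0.86 to 1.69 for Dusp8 and 1.18 to 2.1 for Dusp10, with the low ends without Cnot3 RIP replicate 2. Dusp16 (chr6:134715473-134792625, minus strand), a JNK phosphatase that shuttles between nucleus and cytoplasm, gave 18.1 and 31.1 with the Cnot3 antibody, 17.6 and 16.7 with control IgG and 13.1 and 18.0 in the lysate. Its replicate 1 in Cnot3 RIP was barely above the others, and its log2 fold change of 0.46 (SE 0.29) against control IgG RIP was 0.09 without Cnot3 RIP replicate 2.

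**Figure D1:**
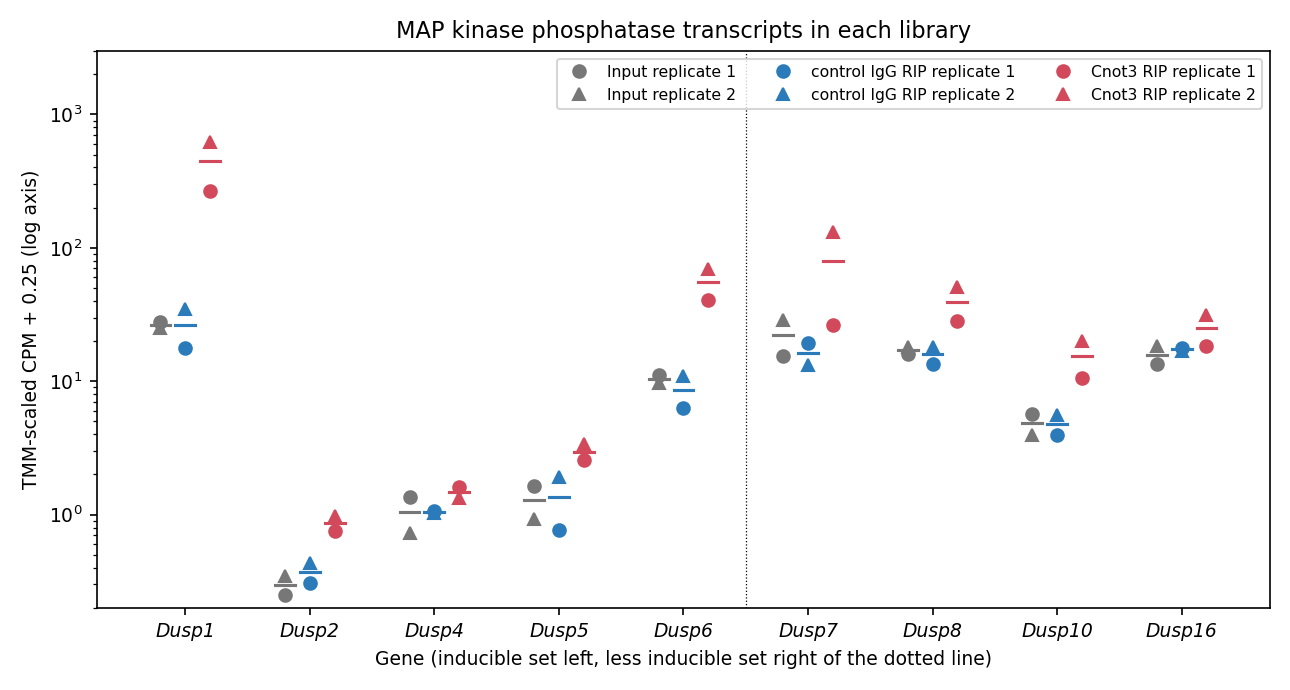
Scaled CPM plus 0.25 (log axis) of the 9 phosphatase genes in each of the 6 libraries, with replicate 1 as circles, replicate 2 as triangles and the group mean as a bar. Dusp1 in Cnot3 RIP (266 and 621) stands far above its values of 17.6 to 34.5 elsewhere, and Dusp7 shows the widest gap between the Cnot3 RIP libraries (26.1 and 132).

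Against control IgG RIP, every Cnot3 RIP library was above every control library in 9 of 9 members, where 24.0% of all tested genes showed this order, 21.8% the opposite order and 54.1% an overlap. Against Input the same held in 7 of 9, against 30.6% of tested genes, with Dusp4 and Dusp7 overlapping, where 26.9% of tested genes lay wholly below Input and 42.5% overlapped it. Dusp1 and Dusp6 passed limma's adjusted p of 0.05 in the direction of Cnot3 RIP over control IgG RIP, 2 of 9 members, beside 1.54% of all tested genes called higher and 0.277% called lower. Against Input 4 of 9 passed, Dusp1, Dusp6, Dusp8 and Dusp10, beside 5.86% called higher and 2.47% called lower. Because the members were chosen by these same values, and the filter fixed the direction of Dusp2, nothing is read from these counts. The comparisons share the Cnot3 RIP libraries and are not independent of each other.

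These counts depended on single libraries. Without control IgG RIP replicate 1, limma called 0 of all tested genes in either direction between Cnot3 RIP and control IgG RIP (at an unadjusted p under 0.05 there were 745 higher and 418 lower), and so none of the phosphatases. Without Cnot3 RIP replicate 1, 5 phosphatases passed against control IgG RIP. Against Input the number was 0 without Input replicate 2 (6 at an unadjusted p under 0.05), 2 without Input replicate 1, and 6 and 2 without the first and the second Cnot3 RIP library. With all libraries, edgeR called 3 against control IgG RIP and 4 against Input, and DESeq2 called 4 in both. Without the filter on low values Dusp8 and Dusp10 lost their calls against Input, and Dusp2 passed there.

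In the control IgG RIP the phosphatases lay near their levels in the lysate. The libraries of these groups overlapped in 9 of 9 members, as they did in 41.1% of tested genes, while control IgG RIP lay wholly above Input in 29.7% and wholly below it in 29.3%. Log2 fold changes ranged from -0.40 for Dusp7 to 0.31 for Dusp2, each smaller than its standard error. Scaling to library size alone turned all 6 negative values positive. None of the 9 was called, with 0 at an unadjusted p under 0.05 in limma and 0 called by edgeR and by DESeq2, beside 2.58% of tested genes called higher and 1.49% called lower by limma.

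**Figure D2:**
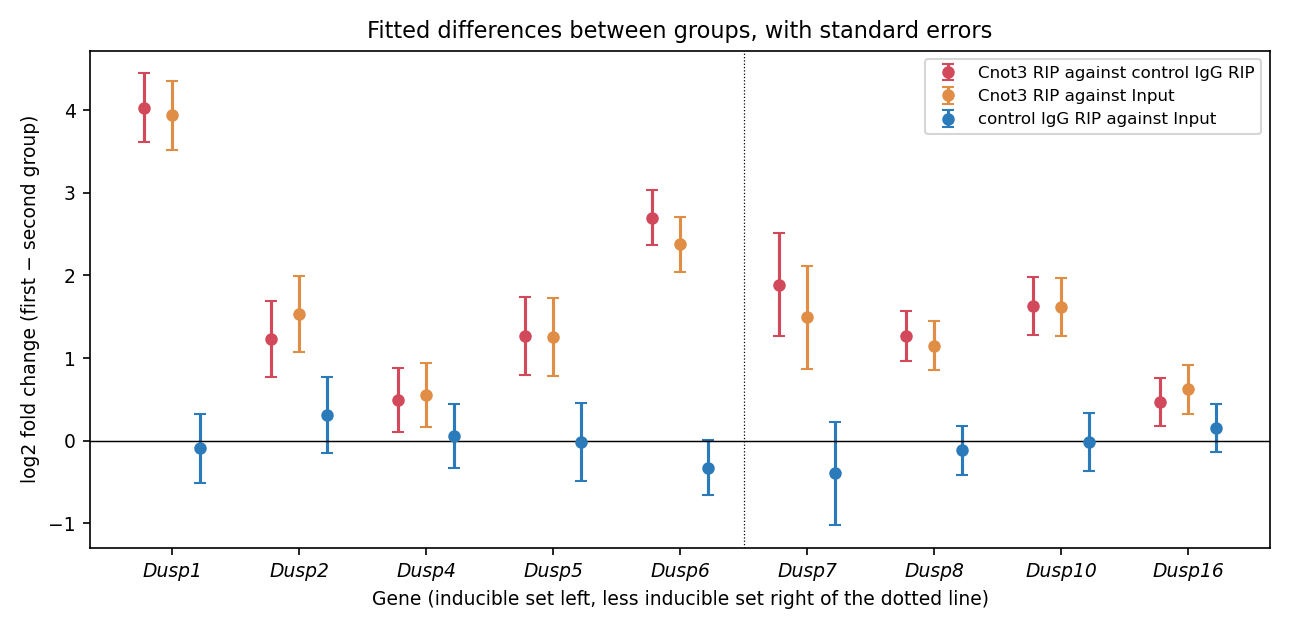
Log2 fold changes of the 9 genes in the 3 comparisons (points) with standard errors from limma (bars). Values of Cnot3 RIP against control IgG RIP run from 0.46 for Dusp16 to 4.03 for Dusp1, and those of control IgG RIP against Input from -0.40 to 0.31.

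The median log2 fold change of Cnot3 RIP against control IgG RIP was 1.27 for the 5 inducible genes, or 1.99 without Dusp2, and 1.45 for the 4 less inducible genes. Over all 9 it was 1.27, or 1.45 without Dusp2, and over all tested genes -0.003. Against Input the medians were 1.53 for the inducible genes, or 1.82 without Dusp2, and 1.32 for the less inducible ones, where all tested genes had 0.06. The inducible median depends on the place of Dusp2, whose few reads the added 0.25 holds down: on the recovered reads it was 2.24 with edgeR and 2.28 with DESeq2 against control IgG RIP, where the less inducible set had 1.53 and 1.5. Against Input it was 2.46 and 2.43, beside 1.48 and 1.45. These edgeR and DESeq2 medians include Dusp2, whose direction was fixed by the filter, and are not given without it. The sets are therefore not ranked by them. The inducible set was the more heterogeneous, from 0.49 for Dusp4 to 4.03 for Dusp1, while the other set ran from 0.46 for Dusp16 to 1.89 for Dusp7. Dusp1 and Dusp6 exceeded every less inducible gene in both comparisons, and Dusp4 exceeded only Dusp16, in the comparison with control IgG RIP.

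Levels can be compared between genes only per length, here as scaled CPM per kilobase of the chosen transcript. In Input the order of mean levels was Dusp1 (13.2 per kilobase), Dusp7 (6.78), Dusp6 (3.61), Dusp8 (3.50), Dusp16 (3.04), Dusp10 (1.64), Dusp5 (0.417), Dusp4 (0.290) and Dusp2 (0.0299). Neighbours overlapped between libraries for Dusp6 and Dusp8, Dusp8 and Dusp16, and Dusp5 and Dusp4. Control IgG RIP began with Dusp1 (13.1 per kilobase) and Dusp7 (4.98), followed by Dusp16 (3.36), Dusp8 (3.25) and Dusp6 (2.97), which overlapped one another in that order. With lengths of all exons joined, Dusp16 moved from the third to the fifth place in control IgG RIP, and Dusp6 and Dusp8 exchanged places in Input. The same 4 genes, Dusp10, Dusp5, Dusp4 and Dusp2, closed the order in Input and in control IgG RIP.

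In Cnot3 RIP the order was led by Dusp1 with 223 ± 126 per kilobase (SD, n = 2). Dusp7 (24.6 ± 23.3) and Dusp6 (19.7 ± 7.32) followed and overlapped each other. Dusp8 (8.15 ± 3.24), Dusp10 (5.40 ± 2.39) and Dusp16 (4.82 ± 1.8) overlapped in turn, so that Dusp10 stood above Dusp16 here without exceeding their spread. Dusp5 (1.10), Dusp4 (0.444) and Dusp2 (0.377) remained the lowest, and the last pair overlapped.

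Dusp1 made up most of the family's RNA in Cnot3 RIP. Summed over the 9 genes, the Cnot3 RIP libraries reached 171 and 404 scaled CPM per kilobase, control IgG RIP 25.0 and 35.1, and Input 31.2 and 33.8. Without Dusp1 the sums were, in the same order, 37.6 and 91.7, 16.1 and 17.8, and 17.4 and 21.3, still highest in both Cnot3 RIP libraries. Dusp1 held 78.0 and 77.3% of the family sum with the Cnot3 antibody, 35.4 and 49.3% with control IgG and 44.4 and 37.1% in the lysate. Dusp6 kept 6.17 to 12.4% of the sum across the 6 libraries. The inducible set as a whole held 87.6 and 84.0% in Cnot3 RIP and 46.1 to 63.2% in the other 4 libraries.

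Levels of most of the phosphatases differed between the pair of Cnot3 RIP libraries, for a reason that was not tested. Dusp7 was 5.01-fold higher in replicate 2 than in replicate 1, a ratio that 26 of 13010 tested genes (0.200%) exceeded. The ratio was 2.34 for Dusp1, 1.89 for Dusp10, 1.78 for Dusp8, 1.71 for Dusp6 and 1.71 for Dusp16, against a median of 1.05 over all tested genes. For Dusp5 (1.31), Dusp2 (1.29) and Dusp4 (0.829) it was nearer 1. Relative to the mean of control IgG RIP, Dusp1 stood at 10.2 in replicate 1 and 23.9 in replicate 2, Dusp6 at 4.91 and 8.39, and Dusp7 at 1.63 and 8.26. The order of Dusp1 before Dusp6 was thus the same in both libraries, while Dusp7 came next to Dusp6 in replicate 2 and near the bottom in replicate 1.

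**Figure D3:**
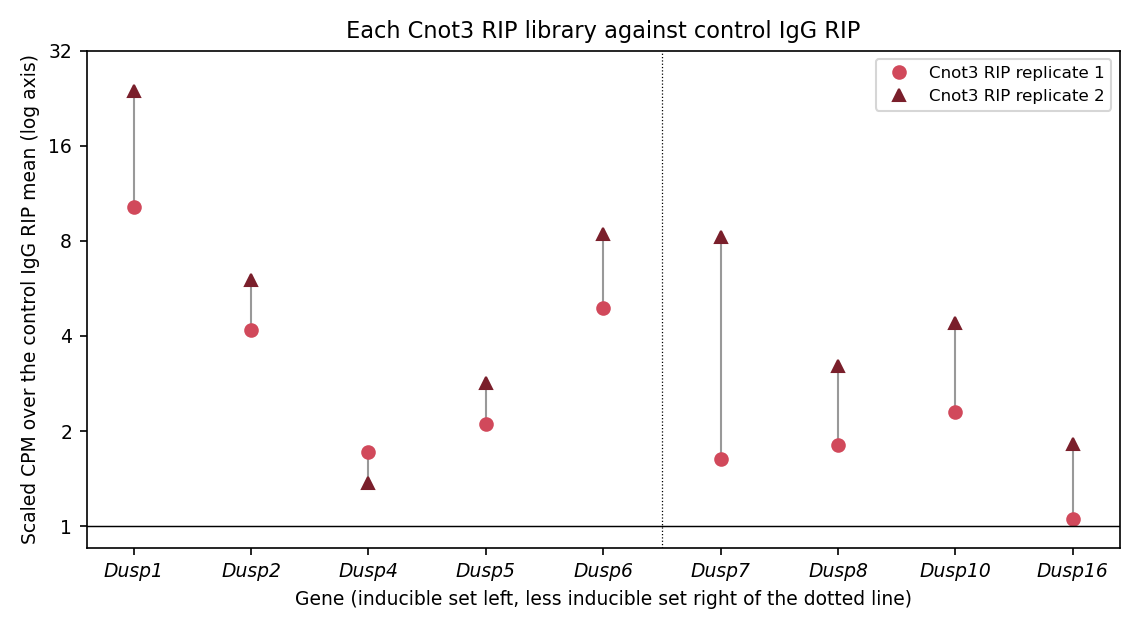
Scaled CPM of each Cnot3 RIP library divided by the mean of control IgG RIP (log axis; a value of 1 is the control mean), for the 9 genes. Replicate 2 (triangles) lies above replicate 1 (circles) in all genes but Dusp4, with the widest distance in Dusp7 (1.63 and 8.26).

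The other genes of the pathway were taken from lists chosen with earlier results of these data known, so the counts below are descriptions beside the background shares given above. Among 15 tested dual-specificity phosphatases outside the 9, limma called 0 in Cnot3 RIP against control IgG RIP (2 at an unadjusted p under 0.05, both higher, and 1 called by edgeR and by DESeq2), and the median log2 fold change was 0.05. The nearest was Ssh1, a phosphatase of the actin regulator cofilin, with 1.39 (SE 0.29, limma adjusted p = 0.0502), and Dusp22 followed with 0.92. Against Input limma called Ssh1 higher (1.78) and Dusp28 lower (-1.16). Neither passed without either Input library or without Cnot3 RIP replicate 2 (limma adjusted p from 0.0593 to 0.169), and the call of Dusp28 was also lost without any of the other 3 libraries (0.0529 to 0.0592) and without the filter on low values (0.0961). Among 10 other phosphatases that act on MAP kinases, including subunits of PP2A and the PP2C enzymes, 0 were called in these comparisons by limma, edgeR or DESeq2 (1 in each at an unadjusted p under 0.05 in limma), with a median of 0.01 against control IgG RIP.

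Most of the kinases that these phosphatases oppose, and most of those upstream, did not pass the test. Of 12 tested MAP kinases 1 rose in Cnot3 RIP against control IgG RIP, the atypical kinase Mapk6 (ERK3), by 1.37 on the log2 scale (SE 0.26, limma adjusted p = 0.0376), and the list's median was 0.08. Of 26 tested MAP2 and MAP3 kinases, the upstream activators, 2 rose and the median was -0.04. They were Map3k8 (Tpl2), an activator of the ERK pathway, with 2.36 (SE 0.47, limma adjusted p = 0.0451), and Map3k2 with 1.41 (SE 0.28, limma adjusted p = 0.0459). The genes that rose are 8.33% of the MAP kinases and 7.69% of the upstream kinases, beside 1.54% of all tested genes. Map3k8 reached 15.6 ± 10.6 scaled CPM with the Cnot3 antibody and 2.49 ± 0.388 with control IgG (SD, n = 2). Mapk6 and Map3k2 lost their calls without any one of 5 libraries, all but Cnot3 RIP replicate 1, with limma adjusted p from 0.0580 to 0.428. Map3k8 lost its call without either control IgG RIP library or without Cnot3 RIP replicate 2, with limma adjusted p from 0.141 to 0.356. Without the filter on low values none of the 3 passed (limma adjusted p from 0.0685 to 0.0855).

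Against Input, 2 MAP kinases, Mapk6 and Nlk, and 5 upstream kinases, Braf, Map3k1, Map3k2, Map3k8 and Map3k13, rose, and Map2k2 fell (-0.98, limma adjusted p = 0.0407). The genes that rose are 16.7% and 19.2% of their lists, beside 5.86% of all tested genes. Scaling to library size alone gave Map2k2 0.08, and its call was lost without any one of 5 libraries, all but Cnot3 RIP replicate 1 (limma adjusted p from 0.0599 to 0.270). Without the filter on low values Mapk6, Map2k2, Mapkapk2 and Ksr1 lost their calls against Input (limma adjusted p from 0.0501 to 0.0768). Of the 2 MAP kinases that rose, 0 passed without control IgG RIP replicate 1, Cnot3 RIP replicate 2 or either Input library, and 1 passed without control IgG RIP replicate 2. Of the 5 upstream kinases, 1 passed without Cnot3 RIP replicate 2, 3 without Input replicate 1 and 0 without Input replicate 2. Of 10 kinases activated by MAP kinases, 0 were called against control IgG RIP by limma, edgeR or DESeq2 (0 at an unadjusted p under 0.05), and Mapkapk2 fell against Input (-0.78), but measured 0.30 with scaling to library size alone. Its call was lost without any one of the 6 libraries, with limma adjusted p from 0.0578 to 0.272. Of 9 scaffold proteins, 0 were called against control IgG RIP by any of the 3 tools (1 at an unadjusted p under 0.05 in limma), and Ksr1 rose against Input (1.49), a call that was lost without Cnot3 RIP replicate 2 or either Input library (limma adjusted p from 0.115 to 0.135). The medians of these lists against control IgG RIP were 0.00 and -0.16.

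Some genes of the list of Ras and ERK feedback inhibitors are, like Dusp6, known as products of the pathway they restrain. The list also holds Nf1, Rasa1, Rasa2, Cbl, Dok1, Dok2, Erf and Gab1, so its values do not describe induced genes alone. The median log2 fold change of the list was 0.70 against control IgG RIP, and 14 of 18 tested were above 0. The median of all tested genes was -0.003. The genes called higher are 5.56% of the list, beside 1.54% of all tested genes. Spry2, an inhibitor of receptor tyrosine kinase signalling, rose by the test with 1.70 (SE 0.34, limma adjusted p = 0.0433). It reached 25.1 ± 11.9 scaled CPM with the Cnot3 antibody and 7.21 ± 1.72 with control IgG (SD, n = 2). Its relatives Spry1 (1.53, limma adjusted p = 0.0530), Spry4 (1.24, limma adjusted p = 0.0521) and Spred2 (1.33, limma adjusted p = 0.0904) did not pass. Without Cnot3 RIP replicate 1 limma called 9 of the 18, and without any other single library, or without the filter on low values, it called 0. Against Input 7 rose (38.9% of the list, beside 5.86% of all tested genes), Spry1, Spry4, Spred1, Errfi1, Rasa2, Il17rd and Cbl. This number was 11 and 0 without the first and the second Cnot3 RIP library, and 0 without either Input library. Without the filter on low values it was 3, as Spry1, Spry4, Errfi1 and Il17rd lost their calls (limma adjusted p from 0.0533 to 0.0613).

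Immediate-early genes that respond to MAP kinases had the highest median of the 8 other lists. Of 31 tested, 11 rose in Cnot3 RIP against control IgG RIP and 0 fell, and the median was 1.47. The genes that rose are 35.5% of the list here and 38.7% against Input, beside 1.54% and 5.86% of all tested genes. The 4 of smallest p were Cyr61, an extracellular matrix protein (3.33, SE 0.41, limma adjusted p = 0.0133), Klf6, a zinc finger transcription factor (2.66, SE 0.33, limma adjusted p = 0.0133), Btg2, an antiproliferative protein that binds CCR4-NOT (3.02, SE 0.43, limma adjusted p = 0.0192), and Zfp36, the AU-rich-element binding protein tristetraprolin (3.59, SE 0.55, limma adjusted p = 0.0246). Zfp36 reached 188 ± 162 scaled CPM with the Cnot3 antibody and 12.2 ± 0.456 with control IgG (SD, n = 2), so its Cnot3 RIP libraries lay far apart, as those of Dusp7 did. The other 7 were Fos, Fosl2, Junb, Ier3, Myc, Phlda1 and Klf2. The number was 0 without control IgG RIP replicate 1, 7 without control IgG RIP replicate 2, and 18 and 3 without the first and the second Cnot3 RIP library, and 2 without the filter on low values, where Btg2 and Zfp36 no longer passed. Against Input 12 rose, and 6 did without Cnot3 RIP replicate 2, 3 without Input replicate 1 and 0 without Input replicate 2.

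**Figure D4:**
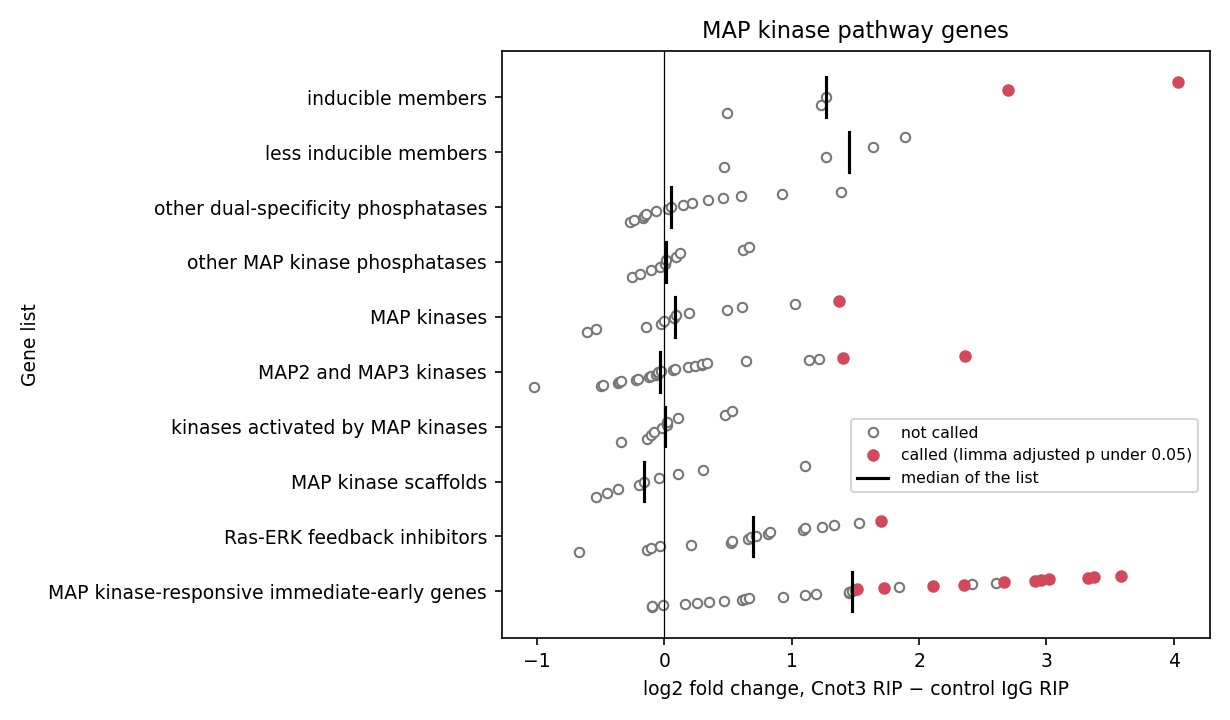
Log2 fold changes of Cnot3 RIP against control IgG RIP for each tested gene of the 2 phosphatase sets and the 8 other lists, with genes past limma's adjusted p of 0.05 filled and the median of each list as a bar. The medians of the phosphatase sets (1.27 and 1.45) and of the immediate-early genes (1.47) lie above those of the kinases, scaffolds and other phosphatases (-0.16 to 0.08).

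The genes whose levels ran most nearly parallel to 3 members were found by the Euclidean distance between centred log2 profiles over the 6 libraries, among 4721 genes with a mean of at least 10 scaled CPM. For Dusp1 the nearest were D5Ertd579e (distance 0.612), Edn1 (0.661), Id1 (0.805) and Cyr61 (1.03). Edn1, which encodes the vasoconstrictor endothelin-1, gave 19.1 and 54.3 scaled CPM with the Cnot3 antibody, 0.865 and 2.40 with control IgG and 1.20 and 1.98 in the lysate. Its log2 fold change against control IgG RIP was 4.24, beside 4.03 for Dusp1. The genes were picked for nearness over these same libraries, so this likeness follows from the choice and nothing is read from it. Edn1 and Id1 were below 10 scaled CPM in every library outside Cnot3 RIP and met the minimum mean only through Cnot3 RIP. Edn1 had far fewer scaled CPM in Input than Dusp1, values that were not divided by length.

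For Dusp6 the nearest were the kinase gene Pim1 (0.384), the AU-rich-element binding protein gene Zfp36l1 (0.457), Fam43a (0.477) and Klf6 (0.479). Pim1 gave 24.8 and 37.5 scaled CPM with the Cnot3 antibody, 3.63 and 7.52 with control IgG and 6.74 and 4.68 in the lysate. Like Dusp6, it was lower in the first than in the second control library and clearly higher in both Cnot3 RIP libraries.

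For Dusp7 the nearest were Coq10b (0.224), the pseudokinase gene Trib1 (0.354), Rasl11b (0.529) and the kinase gene Pim3 (0.530). Coq10b gave 13.4 and 61.5 scaled CPM with the Cnot3 antibody, 9.75 and 6.07 with control IgG and 8.50 and 14.4 in the lysate. Among the 9 phosphatases the smallest distance was that of Dusp2 and Dusp8 (0.608). The few reads of Dusp2 hold down its differences on this scale, so its distances are not read as likeness. Without Dusp2 the closest pair was Dusp8 and Dusp10 (0.700), both in the less inducible set. The nearest member to Dusp1 was Dusp6, at a distance of 1.72.

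Dusp2 aside, the log2 fold changes of the phosphatases did not follow the number of heptamers shown above. Dusp1, with 3, had the largest value against control IgG RIP (4.03). Dusp6 (2.70), Dusp7 (1.89) and Dusp10 (1.64), with none, exceeded Dusp8 with 2 (1.27). Relative to the mean of control IgG RIP, Dusp6 and Dusp10 were above Dusp8 in both Cnot3 RIP libraries. Dusp7 was above Dusp8 only in replicate 2 and below it in replicate 1. Dusp2, with 1, is left out of this order because its value on this scale (1.23) is held down by its few reads. The members were chosen by these same values, and the part of the heptamer in their order was not tested. Among 11871 tested genes with a 3′ UTR in the annotation, the median log2 fold change against control IgG RIP was -0.04 with no heptamer, 0.11 with 1, 0.21 with 2 and 0.33 with at least 3, and the share called higher by limma was 1.0, 2.19, 4.47 and 6.59%. The median 3′ UTR was longer in each step, 743.5, 1744, 2446.5 and 3265 bases, and the part of length in these values was not tested. The octamer shown for Dusp6 gave medians of -0.04 with none, 0.14 with 1, 0.26 with 2 and 0.34 with at least 3, along with 3′ UTRs of 788, 1791, 2403 and 3782 bases. Each of the 9 phosphatases lay above the median of the tested genes with as many heptamers. The members were chosen by these same values and Dusp2 had to point upward, so nothing is read from this.

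**Figure D5:**
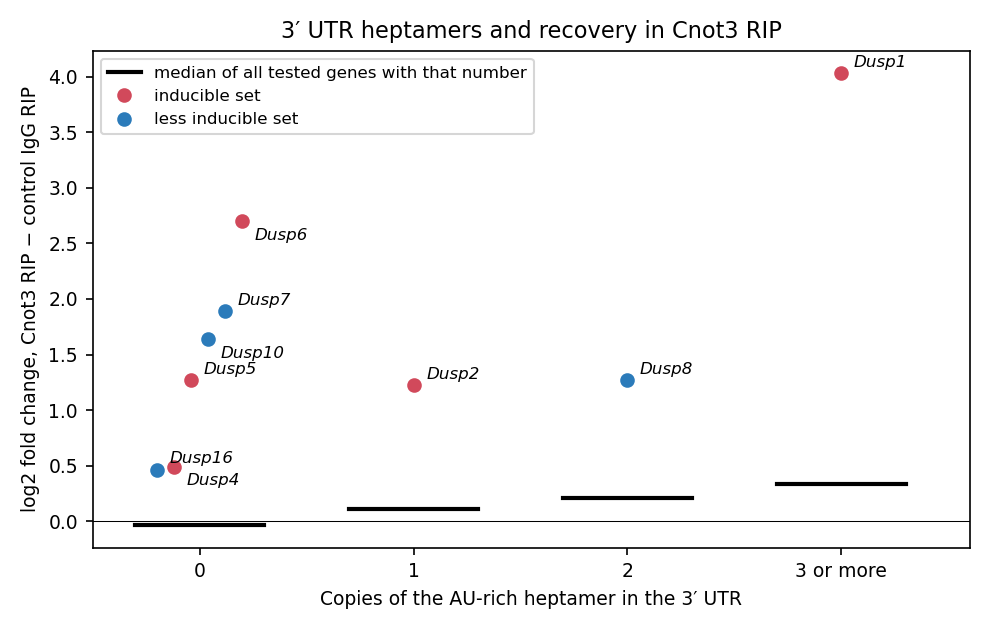
Log2 fold change of Cnot3 RIP against control IgG RIP for the 9 phosphatases by the number of AU-rich heptamers in the 3′ UTR (points spread sideways for legibility), with the median of all tested genes with that number as a bar. Dusp1 (4.03) has 3 copies, while Dusp6 (2.70) has none, and the bars run from -0.04 to 0.33.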

How the data were processed

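Mouse heart RNA was sequenced in 6 libraries, 2 for either antibody and 2 of Input. The table deposited by the authors gives CPM (reads relative to the library total, Rn45s included) for each gene symbol and library. Per the submitters' processing notes reads were handled with TopHat2 2.1.0, Bowtie2 2.2.5, CASAVA 1.8, edgeR and FastQC, on mm10. The counting step, its annotation and its strand setting are not given in the sources, so reads of overlapping antisense genes cannot be told apart. The smallest step between values gave the worth of 1 read, and 100% of values were then whole reads within 0.01 read.

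CPM were scaled with TMM factors (0.619 to 1.46, edgeR 4.0.16) computed on these reads. The values log2(scaled CPM + 0.25) of all 6 libraries entered 1 limma 3.58.1 fit (R 4.3.3, empirical Bayes with a trend) with 3 group means, without a replicate block, leaving 3 residual and 6.24 prior degrees of freedom. Genes with at least 0.538 CPM (10 reads in the median library) in 2 libraries or more were kept, 13010 of 24421. Calls needed a Benjamini-Hochberg adjusted p under 0.05 over all tested genes. As alternatives, edgeR's quasi-likelihood test on the recovered reads made 242 upward and 54 downward calls between Cnot3 RIP and control IgG RIP, and DESeq2 1.42.0, other scalings, pseudocounts, filters and left-out libraries were tried. The fit was tested on simulated data.

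The members, the lists and the alternatives were chosen with earlier results of these data known. All 9 members were named. In each list the 4 genes of smallest p in Cnot3 RIP against control IgG RIP were looked at, but not all of them are named in the text. Those left out were not called and lay on both sides of 0, as with Ssh2 (0.60) and Mapk12 (-0.61). For Dusp1, Dusp6 and Dusp7 the 4 genes of nearest profile were also named, leaving out symbols that begin with Gm, LOC, BC, AI, AW, AA, Mir or Snor or end in Rik or -ps; other clone names such as D5Ertd579e stayed in. The other genes named were those called in a list, named after their values were seen. Transcripts and 3′ UTRs are from GENCODE M21 (12023 of the tested genes matched by symbol) and promoters from RefSeq.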

Additional observations from a re-analysis of the deposited data

How the results depend on the processing

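The limits are few libraries and unequal levels of most of the phosphatases between the Cnot3 RIP libraries. Dusp2, Dusp4 and Dusp5 had few reads, and depth limits their values. Leaving out a library leaves its group with a lone one, assumed to vary like the others. Log2 fold changes of Cnot3 RIP over control IgG RIP and over Input kept their sign in all 9 phosphatases under every alternative run. The members were chosen by these values and Dusp2 had to point upward under the filter, so the kept signs are not a test. For each change listed here the cause was not tested.

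For Cnot3 RIP against control IgG RIP, the genes called higher (200 with all libraries) were 34 without the filter on low values, 592 with scaling to library size alone, 573 with DESeq2 and 95 when fitted without Input, and 0 to 1043 over the left-out libraries. Those called lower (36) were 65 with a pseudocount of 1, 1 without the filter, 162 with DESeq2 and 17 without Input, and 0 to 263 over the left-out libraries. Phosphatases called higher (2) were 4 with library size scaling and 4 with DESeq2, and 0 to 5 over the left-out libraries. The median of the inducible set (1.27), Dusp2 included, was 2.24 with edgeR and 2.28 with DESeq2, and 0.96 to 1.92 over the left-out libraries. That of the less inducible set (1.45) was 0.80 to 1.90 over the left-out libraries.

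For Cnot3 RIP against Input, the genes called higher (762) were 445 without the filter, 7752 with library size scaling and 10 to 1461 over the left-out libraries. Those called lower (321) were 103, 7, and 2 to 509 in the same settings, and 523 with DESeq2. Phosphatases called higher (4) were 9 with library size scaling and 0 to 6 over the left-out libraries. The median of the inducible set (1.53), Dusp2 included, was 0.89 with a pseudocount of 1, 2.14 with library size scaling, 2.46 with edgeR and 2.43 with DESeq2. That of the less inducible set (1.32) was 2.39 with library size scaling and 0.54 to 1.82 over the left-out libraries.

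For control IgG RIP against Input, the genes called higher (336) were 4383 with library size scaling, 220 with edgeR, 571 without Cnot3 RIP in the fit and 16 to 509 over the left-out libraries. Those called lower (194) were 102 without the filter, 10, 119 and 431 in those settings and 3 to 386 over the left-out libraries. With library size scaling 1 phosphatase was called higher, and the set medians were 0.58 and 0.67, against -0.02 and -0.07; over the left-out libraries the inducible median ran from -0.57 to 0.37.

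Among the phosphatases signs turned only between control IgG RIP and Input, where values were near 0. With library size scaling Dusp1 measured 0.66, Dusp5 0.58, Dusp6 0.42, Dusp7 0.36, Dusp8 0.63 and Dusp10 0.70. Dusp5 measured 0.012 with a pseudocount of 1, 0.21 with edgeR and 0.17 with DESeq2, and Dusp10 0.0075 with edgeR and 0.0039 with DESeq2. Over the left-out libraries Dusp1 ran from -0.57 to 0.37, Dusp4 from -0.41 to 0.50, Dusp5 from -0.67 to 0.63, Dusp6 from -0.72 to 0.056, Dusp7 from -0.864 to 0.034, Dusp8 from -0.33 to 0.074, Dusp10 from -0.30 to 0.23 and Dusp16 from -0.087 to 0.36. Among list genes that were not called, Ppp2r1b (0.05) and Rps6ka2 (0.17) turned with library size scaling, Rps6ka2 (0.13) without Cnot3 RIP replicate 1 and Mknk2 (-0.06) without Cnot3 RIP replicate 2.

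The labels do not say that a replicate number pairs libraries of different groups, and deviations of same-numbered libraries correlated at -0.32 (control IgG RIP and Cnot3 RIP), -0.33 (control IgG RIP and Input) and 0.34 (Cnot3 RIP and Input). With the replicate block, the comparison of both antibodies gave 93 genes called lower and 4 phosphatases called higher, with 166 lower against Input and 77 lower in control IgG RIP against Input.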
